A study of Mus musculus with 10 samples.

Results

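Krt6a, Krt6b, Krt16 and Krt17 are the keratins that epidermis switches on when it is wounded or hyperproliferative. They were taken by gene symbol from the deposited table, 4 genes of 49671 gene IDs, and all 4 passed the filter on low values. Krt6a and Krt6b are type II (basic) keratins, and Krt16 and Krt17 are the type I (acidic) keratins they pair with. In resting interfollicular epidermis the basal pair is Krt5 and Krt14, the suprabasal pair is Krt1 and Krt10, and the wound keratins are mostly confined to hair follicle and nail epithelium and some other sites of contact stress. At a wound edge, in psoriasis and in many skin tumours keratinocytes express them next to the basal pair. Krt17 is also known as a keratin of basal cell carcinoma, the tumour that Hedgehog signalling drives.

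The study sequenced polyA RNA in bulk from mouse skin epidermal cells sorted by FACS for SmoM2-YFP, an activated Smoothened that turns Hedgehog signalling on, to ask what Survivin (encoded by Birc5) does as basal cell carcinoma forms. Every group carried Rosa-SmoM2 and a tamoxifen-dependent Cre, and each had 2 libraries. The LOF group was Krt14-CREER/Rosa-SmoM2 with Survivin LOF (loss of function) at 6 weeks. The GOF group was Inv-CREER/Rosa-SmoM2 with Krt14rtTA and Survivin-GOF (gain of function) at 8 weeks. The remaining groups were Krt14-CREER/Rosa-SmoM2 at 8 weeks (Krt14 at 8 weeks), the same genotype at 6 weeks (Krt14 at 6 weeks) and Inv-CREER/Rosa-SmoM2 at 8 weeks (Inv). Weeks are those written beside TAM in the titles, read here as tamoxifen, and the age of the mice was not given. Krt14-CREER is named for a keratin gene of basal keratinocytes and Inv-CREER for Involucrin, a gene of differentiating ones. Which cells each driver marked is not given in the labels, so the drivers are not read here as basal against differentiated cells. Krt14rtTA was not listed for Inv, so its effect and that of Survivin-GOF cannot be told apart. Both Inv libraries are described as pools, and nothing in the labels says that the libraries of a group came from separate animals, so each p-value here reflects variation among libraries only, which may be technical. Because the samples are bulk RNA, fewer cells with a transcript and less transcript per cell cannot be told apart.

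Libraries held 7693155 to 8870758 reads, recovered from the normalized values, and the keratinocyte markers Krt5, Krt14, Trp63, Cdh1, Epcam and Itga6 together ranged from 149735 to 307351 normalized counts. Birc5 stood at 382 and 429 normalized counts in LOF, against 961 and 1103 in Krt14 at 6 weeks, and at 7277 and 16384 in GOF, against 237 and 265 in Inv. The LOF and GOF libraries stood apart from the others in Xist. Xist, the transcript of the inactive X chromosome, had 30024 and 59594 normalized counts in LOF and 7589 and 56185 in GOF, and between 51 and 194 in the other 6 libraries. The Y-linked Ddx3y was present throughout, at 1336 and 956 in LOF and 3328 and 970 in GOF, against 2289 to 2909 elsewhere. Xist was thus high in both groups with an altered Survivin. Between the GOF replicates Xist was 7.40-fold higher in replicate 2 and Ddx3y 3.43-fold higher in replicate 1. The labels do not give sex, so the sex makeup of these libraries and the Survivin genotype cannot be told apart. The part of Xist in the results was not tested beyond a fit with Xist as a covariate. That fit was chosen after seeing the data and is given where it changed a call.

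On GRCm38 the members lie in the 2 keratin clusters, all on the minus strand. Krt6a (ENSMUSG00000058354) spans chr15:101689910-101694307 and Krt6b (ENSMUSG00000023041) chr15:101676023-101680287, with 9622 bases between them and Krt5 12762 bases beyond Krt6a. Krt16 (ENSMUSG00000053797) spans chr11:100246091-100248902 and Krt17 (ENSMUSG00000035557) chr11:100256217-100261029, with 7314 bases between them, Krt42 1852 bases beyond Krt17 and Krt14 38542 bases beyond Krt16. The coding sequences of Krt6a and Krt6b (GENCODE M21 transcripts) were identical at 1622 of 1659 aligned bases, or 97.8%. Of the 50-base windows of the Krt6a transcript, 43.6% also occurred in Krt6b, so a read of that length from such a window cannot be assigned to either. The next lines show the coding stretch in which they differ most, 10 of 60 bases, with the differing bases in capitals. These are only some of the bases at which reads of the 2 genes can be told apart.
Krt6a: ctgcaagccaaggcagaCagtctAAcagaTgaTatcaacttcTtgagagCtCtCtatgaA
Krt6b: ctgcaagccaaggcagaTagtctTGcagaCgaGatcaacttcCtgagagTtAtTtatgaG
They were read from chr15:101692484-101692543 for Krt6a and chr15:101678303-101678362 for Krt6b (GRCm38, minus strand, both within an exon). By contrast the longest stretch without a difference ran over 280 coding bases, from the 34th to the 313th base of both genes, and it is shown because reads from it carry no information on which gene they came from.
Krt6a and Krt6b: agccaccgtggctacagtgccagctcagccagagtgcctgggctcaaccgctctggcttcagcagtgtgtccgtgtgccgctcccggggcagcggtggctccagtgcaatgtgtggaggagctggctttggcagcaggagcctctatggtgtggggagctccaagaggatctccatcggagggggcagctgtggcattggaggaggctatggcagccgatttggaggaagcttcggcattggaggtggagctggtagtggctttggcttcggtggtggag
It lies at chr15:101693936-101694215 in Krt6a and chr15:101679911-101680190 in Krt6b. Krt16 and Krt17 were 82.0% identical over their aligned coding bases, and 87.6% and 96.1% of their 50-base windows occurred in none of the other listed keratins, against 50.5% for Krt6a and 49.9% for Krt6b. Values of Krt6a and Krt6b are therefore uncertain as to their split, and their sum is given beside them. An annotated miRNA entry on the plus strand, Gm44342, lies wholly within exons of Krt6a over 129 bases, and Gm44383 does so within Krt6b. The values of Gm44342 ran between 12.1% and 16.9% of those of Krt6a in the 10 libraries, and how reads over shared bases were assigned is not given in the sources used here.

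Across groups all 4 members had the same order of mean level, highest in Krt14 at 6 weeks, then Krt14 at 8 weeks, LOF, GOF and Inv. Per kilobase of exon, Krt17 was the most abundant of the 4 in every group, at 25864 normalized counts in LOF, 11507 in GOF, 46794 in Krt14 at 8 weeks, 60151 in Krt14 at 6 weeks and 8985 in Inv. Krt6a followed at 1163, 711, 13884, 19155 and 414 per kilobase in those groups in the same order. Krt16 stood at 704, 671, 5761, 7084 and 530 and exceeded Krt6a only in Inv. Krt6b was the least abundant throughout, at 116, 108, 2840, 3713 and 85.5. In Krt14 at 6 weeks Krt17 thus reached a level per kilobase near those of the basal keratins Krt5 (64651) and Krt14 (47688). Together the 4 genes made up 0.688% and 0.901% of all normalized counts in Krt14 at 6 weeks and 0.0829% and 0.0766% in Inv. In that order the neighbours LOF and GOF overlapped in Krt6a, Krt6b and Krt16, and GOF and Inv overlapped in Krt6b, Krt16 and Krt17.

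**Figure D1:**
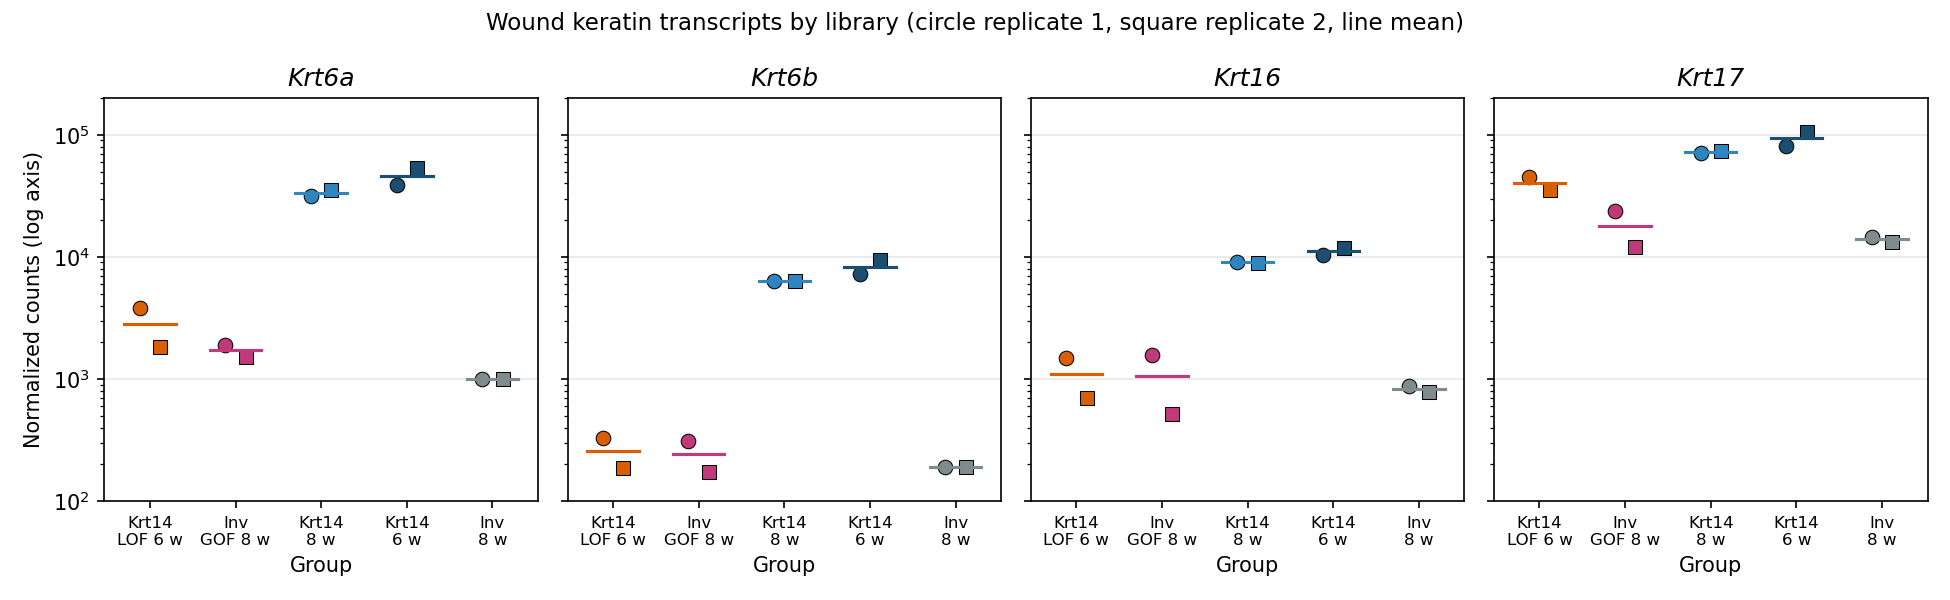
Normalized counts of the 4 wound keratins in each of the 10 libraries (log axis, groups along the x axis, circle for replicate 1, square for replicate 2, line for the mean of 2). All 4 genes are high in the libraries of Krt14 at 8 and 6 weeks, and LOF, GOF and Inv lie below them, with Krt17 in LOF between 35138 and 45093.

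With Survivin LOF all 4 wound keratins fell, Krt6b, Krt6a and Krt16 by more than 10-fold and Krt17 by 2.33-fold in the ratio of means. The comparison asks what SmoM2 cells of the Krt14 driver express when Survivin is lost. Over all tested genes the median change (log2) was 0.16 on the deposited scale and 0.02 after rescaling by the median of ratios, under which the members changed by -4.26 (Krt6a), -5.18 (Krt6b), -3.57 (Krt16) and -1.36 (Krt17). Of the 21995 genes tested, 11.4% were called lower in LOF (limma, adjusted p of 0.05), and 25.8% had LOF libraries wholly below those of Krt14 at 6 weeks, as all 4 members did. The basal pair Krt5 and Krt14 did not pass the test, with log2 changes of -0.13 and -0.23, while 2 of the 6 keratinocyte markers, Trp63 and Epcam, were called lower. Epcam had 3249 and 3049 in LOF, against 5190 and 5620 in Krt14 at 6 weeks, and the 6 markers summed to between 240992 and 275080, against 285544 to 307351. Their part in the keratin falls was not tested.

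Krt6a, the more abundant type II member, had 3806 and 1818 normalized counts in LOF, against 38838 and 53795 in Krt14 at 6 weeks. Both LOF libraries lay far below either control, and they differed from each other 2.09-fold. The log2 change was -4.12 (SE 0.27, limma adjusted p = 4.72e-06), and the mean was 2812 ± 1406 in LOF and 46317 ± 10576 in Krt14 at 6 weeks (SD, n = 2 each). Krt6b, its near-copy, had 330 and 188 in LOF, against 7218 and 9380 in Krt14 at 6 weeks. Its groups were apart as widely, and its log2 change was -5.04 (SE 0.28, limma adjusted p = 2.10e-06), with a 95% interval of -5.66 to -4.42 that overlapped that of Krt6a, -4.72 to -3.52. Counting error was small beside this, since the lowest of these values still rested on 83 reads. Taken as 1 gene, the sum of Krt6a and Krt6b changed by -4.23 on the log2 scale.

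Krt16, the type I partner of Krt6 at wounds and a keratin whose loss in mice leads to paw lesions, had 1497 and 706 in LOF, against 10328 and 11846 in Krt14 at 6 weeks. The LOF libraries again lay below both controls, with a log2 change of -3.43 (SE 0.43, limma adjusted p = 0.000213). Krt17, which is reported to bind the growth and translation adaptor Sfn (14-3-3 sigma), had 45093 and 35138 in LOF, against 81236 and 105351 in Krt14 at 6 weeks. Its groups did not overlap, and its change of -1.22 (SE 0.25, limma adjusted p = 0.00398) had a 95% interval of -1.76 to -0.67, which lay apart from those of the other 3. Among all tested genes ordered from the largest fall, Krt6b stood at place 52, Krt6a at 123, Krt16 at 205 and Krt17 at 1432.

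With Xist as a covariate no member passed in this comparison: Krt6a changed by -2.42 (SE 0.92, adjusted p = 0.165), Krt6b by -2.20 (SE 0.67, adjusted p = 0.0895), Krt16 by 1.29 (SE 0.83, adjusted p = 0.435) and Krt17 by 1.42 (SE 0.53, adjusted p = 0.154) in limma. The slope of that covariate comes from differences between replicates within groups, where Xist differed most in GOF, 7.40-fold. Markers of other cells moved with LOF too, and their part in these falls was not tested. Fibroblast markers summed to 18817 and 19188 in LOF and to between 1300 and 2673 in Krt14 at 6 weeks, nearly all of it Dcn, which had 17993 and 18053 in LOF, against 2205 and 1163. Of the 6, Col1a2 and Dcn were called higher, and Col1a1 stood at 117 and 93 in LOF, against 218 and 75. Melanocyte markers summed to between 2766 and 2856 in LOF, against 858 to 898, with 4 of 5 called higher. Langerhans cell markers summed to between 534 and 1165 in LOF, against 82 to 99, with 3 of 3 called higher. The 9 neutrophil and macrophage markers summed to between 240 and 311 in LOF, against 205 to 229, and Ly6g, Mpo, Elane, Csf3r and Adgre1 were at or under 3 reads in all libraries. Of the others Cxcr2 was called lower, at 0 and 3 in LOF, against 51 and 42 in Krt14 at 6 weeks, while Cd68 had 95 and 75 in LOF, against 39 and 52, and Csf1r had 142 and 230 in LOF, against 115 and 135.

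Between the drivers at 8 weeks, with no Survivin allele listed in either group, all 4 members were higher in Krt14 than in Inv, Krt6a and Krt6b by 33.6-fold and 33.2-fold in the ratio of means. This comparison sets the drivers side by side, and Xist was low in both of its groups. Birc5 itself was higher, at 1005 and 926 in Krt14 at 8 weeks, against 237 and 265 in Inv (log2 change 1.94, limma adjusted p = 0.000726). Of all tested genes 8.18% were called higher in Krt14 at 8 weeks, and 25.4% had values wholly above those of Inv, as all 4 members did. Krt5 and Krt14 did not pass, with log2 changes of 0.37 and 0.37, but the other 4 of the 6 keratinocyte markers (Trp63, Cdh1, Epcam and Itga6) were called higher. Epcam had 4822 and 4733 in Krt14 at 8 weeks, against 1789 and 1685 in Inv, and the 6 markers summed to between 245492 and 257076, against 181824 to 188981. Their part in the keratin difference was not tested.

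Krt6a had 31648 and 35496 normalized counts in Krt14 at 8 weeks, against 997 and 1003 in Inv. The replicates lay close together in both groups, and the log2 change was 5.07 (SE 0.27, limma adjusted p = 2.57e-06). Krt6b had 6404 and 6291 in Krt14 at 8 weeks, against 192 and 190 in Inv, a change of 5.05 (SE 0.28, limma adjusted p = 2.68e-06). Its libraries fell into the same high and low sets as those of Krt6a. Krt16 had 9097 and 8936 in Krt14 at 8 weeks, against 870 and 789 in Inv, a change of 3.44 (SE 0.43, limma adjusted p = 0.000293). Krt17 had 70890 and 74264 in Krt14 at 8 weeks, against 14530 and 13343 in Inv, a change of 2.38 (SE 0.25, limma adjusted p = 8.13e-05). For all 4 genes both Krt14 libraries lay above both Inv libraries. Among all tested genes ordered from the largest rise, Krt6a stood at place 31, Krt6b at 32, Krt16 at 140 and Krt17 at 390.

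The calls held in every alternative fit run, Xist as a covariate included, where Krt6a changed by 4.86, Krt6b by 4.71, Krt16 by 2.88 and Krt17 by 2.06 on the log2 scale. Per Krt14 in the same library the change of Krt17 was 2.01. Sebaceous and upper follicle markers summed to between 60249 and 66675 in Krt14 at 8 weeks, against 161417 to 162150 in Inv. Of these 7 markers 5 were called lower and 1 higher, Krt79, with 32603 and 29132, against 12521 and 11972. Suprabasal markers summed to between 39857 and 42883, against 20710 to 21060, with 3 of 7 called higher. Krt1 was among them, with 22262 and 21461, against 6619 and 6928. Fibroblast markers summed to between 1805 and 2441, against 17944 to 19983, again nearly all Dcn. The part of these markers in the keratin difference was not tested.

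**Figure D2:**
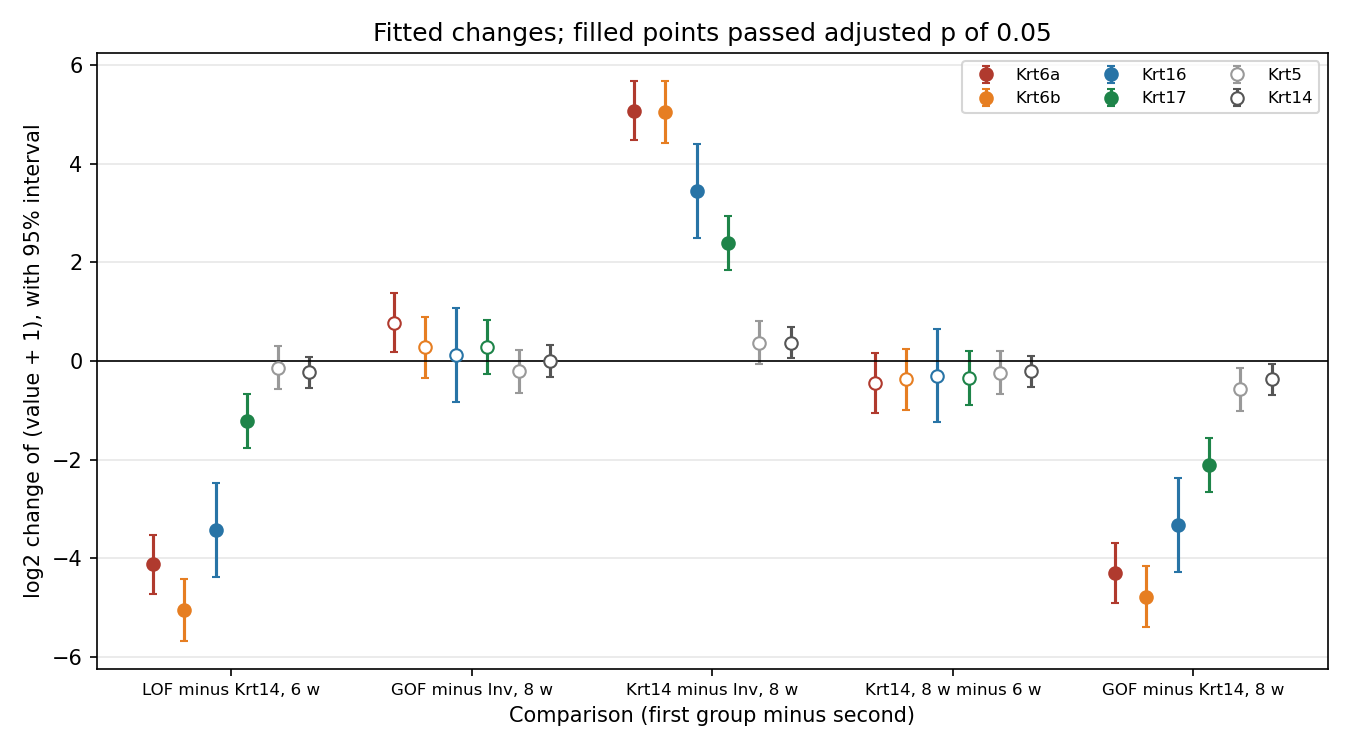
Fitted log2 changes with 95% intervals (limma, 2 libraries a group) of the 4 wound keratins and of the basal keratins Krt5 and Krt14 in 5 comparisons, filled where the adjusted p was under 0.05. The 4 wound keratins are filled and far from 0 in 3 comparisons and open in GOF minus Inv and in Krt14 at 8 minus 6 weeks, and Krt5 and Krt14 are open in all 5.

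With Survivin GOF in Inv-driver cells no wound keratin passed the test. Of all tested genes 15.3% were called in either direction, so a count of 0 among 4 genes says little about the members. The comparison asks what raised Survivin does in cells of the Involucrin driver. In limma 0 of 4 members were called, 1 of 4 had an unadjusted p under 0.05 (Krt6a), and limma-voom on recovered reads also called 0 of 4. Krt6a had 1907 and 1529 normalized counts in GOF, against 997 and 1003 in Inv. The log2 change was 0.77 (SE 0.27, limma adjusted p = 0.0813, 95% interval 0.17 to 1.37).

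Krt6b had 311 and 172 in GOF, against 192 and 190 in Inv, and the groups overlapped (log2 change 0.28, limma adjusted p = 0.569). Krt16 had 1587 and 513 in GOF, against 870 and 789 in Inv. Its GOF libraries lay on either side of both Inv libraries, 3.09-fold apart, and the change of 0.12 had a 95% interval of -0.82 to 1.07. Krt17 had 23637 and 12058 in GOF, against 14530 and 13343 in Inv, likewise on either side (log2 change 0.28, limma adjusted p = 0.505). In each of the 4 genes GOF replicate 1, the library with the lower Xist and the lower Birc5, was the higher of the pair. The GOF replicates differed in other genes too. Replicate 1 had more Krt5 (105628, against 61520 in replicate 2) and Krt14 (66834, against 47388). Its endothelial markers summed to 293, against 1095 in replicate 2. The part of these differences in the keratin values was not tested. Without GOF replicate 2, Krt17 was called higher, at 0.76 (limma adjusted p = 0.0139). Without GOF replicate 1 the changes were -0.15 for Krt6b, -0.69 for Krt16 and -0.21 for Krt17, and none passed. With Xist as a covariate the changes were 2.05 for Krt6a, 2.43 for Krt6b, 3.69 for Krt16 and 2.28 for Krt17, and again none passed (limma adjusted p between 0.0547 and 0.326). Sebaceous and upper follicle markers summed to between 47828 and 62958 in GOF, against 161417 to 162150 in Inv, with 7 of 7 called lower, and this was not tested against the keratins.

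Set beside Krt14 cells at 8 weeks, GOF cells had all 4 wound keratins lower, by 19.5-fold for Krt6a, 26.3-fold for Krt6b, 8.59-fold for Krt16 and 4.07-fold for Krt17 in the ratio of means. GOF and Krt14 at 8 weeks differ in the driver, in the listed Krt14rtTA and in Survivin-GOF at once. This comparison shares the GOF libraries with GOF minus Inv and the Krt14 libraries with Krt14 minus Inv. Called lower in GOF were 12.5% of all tested genes, and 25.6% had GOF values wholly below those of Krt14 at 8 weeks, as all 4 members did. Krt6a (1907 and 1529 in GOF, against 31648 and 35496 in Krt14 at 8 weeks) changed by -4.29 (SE 0.27, limma adjusted p = 4.25e-06). Krt6b (311 and 172 in GOF, against 6404 and 6291) changed by -4.77, Krt16 (1587 and 513 in GOF, against 9097 and 8936) by -3.32 and Krt17 (23637 and 12058 in GOF, against 70890 and 74264) by -2.10. The adjusted p in limma was 0.000307 for Krt16 and 0.000170 for Krt17. As with LOF, no member passed with Xist as a covariate, where Krt6a changed by -2.81 (adjusted p = 0.137), Krt6b by -2.28 (adjusted p = 0.102), Krt16 by 0.82 (adjusted p = 0.678) and Krt17 by 0.21 (adjusted p = 0.887) in limma. Without GOF replicate 1 or replicate 2 all 4 were still called lower, but the log2 change of Krt16 was -4.13 without replicate 1 and -2.51 without replicate 2. Of the 6 keratinocyte markers, Cdh1, Epcam and Itga6 were called lower in GOF and the others did not pass. Epcam had 1462 and 2033 in GOF, against 4822 and 4733 in Krt14 at 8 weeks. The 6 markers summed to between 149735 and 219161, against 245492 to 257076. Fibroblast markers summed to between 14803 and 37656 in GOF, against 1805 to 2441 in Krt14 at 8 weeks, nearly all Dcn. The part of these markers in the keratin falls was not tested.

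From 6 to 8 weeks of the Krt14 driver the 4 members were all somewhat lower in the later libraries, and none passed the test. Krt6a had 31648 and 35496 at 8 weeks, against 38838 and 53795 at 6 weeks, a log2 change of -0.45 (95% interval -1.05 to 0.15, limma adjusted p = 0.368). Krt6b changed by -0.37, Krt16 by -0.29 and Krt17 by -0.35, with limma adjusted p between 0.368 and 0.737 for the 4. In limma 0 of 4 were called, none had an unadjusted p under 0.05, and limma-voom called 0 of 4. Of all tested genes 4.88% were called in either direction, so a count of 0 among 4 genes is near that share. The values at 8 weeks lay wholly below those at 6 weeks in all 4 genes, as they did in 18.2% of all tested genes. In a fit to these groups alone Krt16 passed (limma adjusted p = 0.0461). The suprabasal keratins Krt1 and Krt10 rose instead. Krt10 had 17275 and 15306 at 8 weeks, against 2972 and 5741 at 6 weeks (log2 change 1.98), and Krt1 had 22262 and 21461 at 8 weeks, against 4257 and 8034 (log2 change 1.90). Sebaceous and upper follicle markers were also higher, summing to between 60249 and 66675 at 8 weeks, against 33418 to 37833 at 6 weeks, with 5 of 7 called higher. The difference between these genes and the members was not tested.

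The members did not keep a fixed ratio to each other. Krt6b made up 7.98% and 9.37% of Krt6a plus Krt6b in LOF, 14.0% and 10.1% in GOF, 16.8% and 15.1% in Krt14 at 8 weeks, 15.7% and 14.8% in Krt14 at 6 weeks and 16.1% and 15.9% in Inv. LOF was thus the group with the lowest share, and Inv, with the lowest level of both genes, had a share like that of the Krt14 groups. These shares carry the uncertain split of reads between the 2 genes described above. Krt6b rested on 133 and 83 reads in LOF, 129 and 66 in GOF and 84 and 84 in Inv. In the type I pair Krt16 made up 3.21% and 1.97% of Krt16 plus Krt17 in LOF, 6.29% and 4.08% in GOF, 11.4% and 10.7% in Krt14 at 8 weeks, 11.3% and 10.1% in Krt14 at 6 weeks and 5.65% and 5.58% in Inv. In this pair the 4 libraries of Krt14 at 8 and 6 weeks lay above all others, and both LOF libraries lay below all others.

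Set against Krt14, the basal type I keratin with which the wound type I keratins compete for partners, Krt17 stood at 58.3% and 53.2% in LOF and at 98.2% and 124% in Krt14 at 6 weeks. It stood at 35.4% and 25.4% of Krt14 in GOF, 101% and 98.7% in Krt14 at 8 weeks and 24.8% and 24.7% in Inv. Krt6a stood at 4.92% and 2.75% of Krt14 in LOF, against 47.0% and 63.3% in Krt14 at 6 weeks. It stood at 2.85% and 3.23% in GOF, 45.2% and 47.2% in Krt14 at 8 weeks and 1.70% and 1.86% in Inv. Relative to Krt14, LOF libraries thus lay between the Inv-driver and the other Krt14-driver libraries in Krt17, and overlapped GOF in Krt6a. The ratio of Krt17 to Krt6a in normalized counts was 11.8 and 19.3 in LOF, 12.4 and 7.89 in GOF, 2.24 and 2.09 in Krt14 at 8 weeks, 2.09 and 1.96 in Krt14 at 6 weeks and 14.6 and 13.3 in Inv. With 2 libraries against 2, the smallest two-sided p of an exact permutation test is 0.333, so these ratios are given without one.

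**Figure D3:**
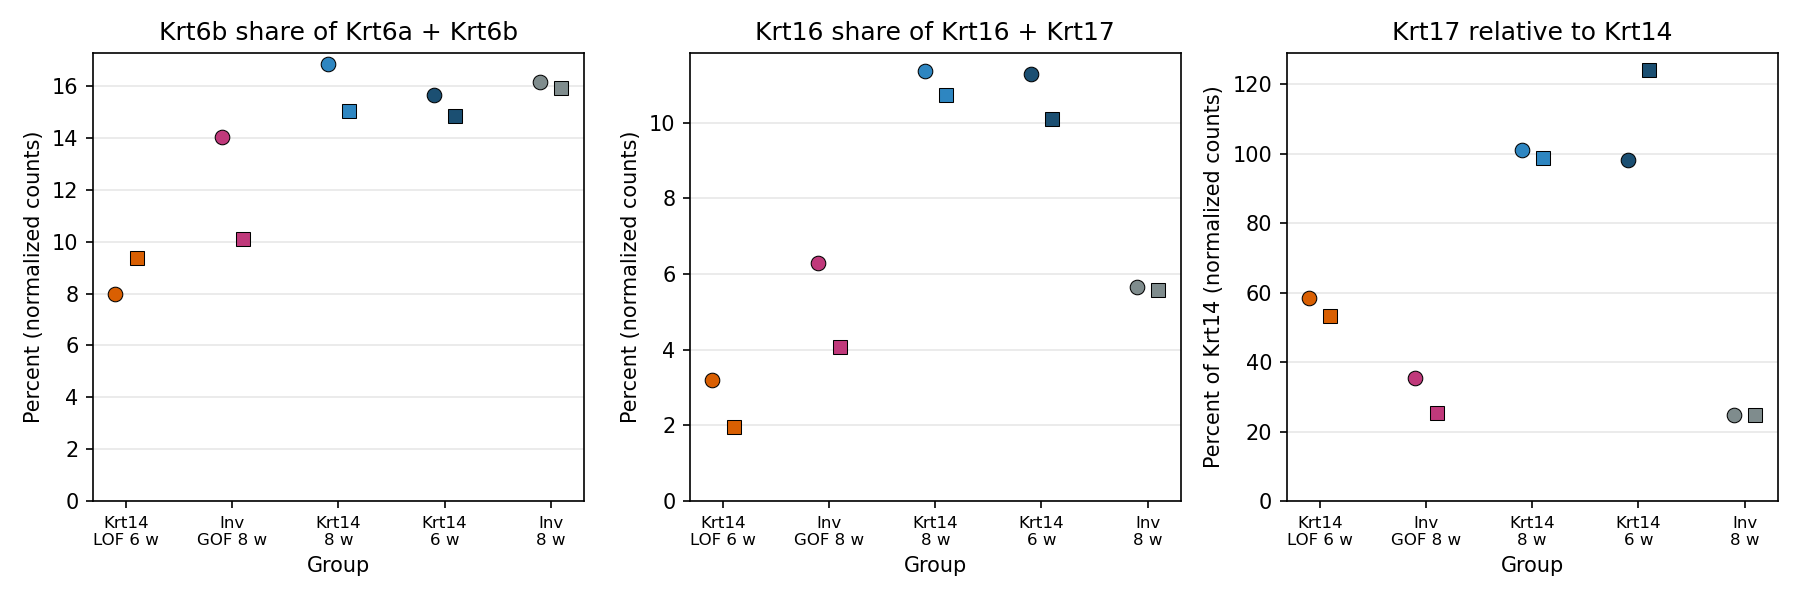
Ratios among keratins in each library, as percent of normalized counts (circle for replicate 1, square for replicate 2, groups along the x axis): Krt6b as a share of Krt6a plus Krt6b, Krt16 as a share of Krt16 plus Krt17, and Krt17 relative to Krt14. LOF has the lowest Krt6b share (7.98% and 9.37%) and the lowest Krt16 share (3.21% and 1.97%), and Krt17 is near or above the level of Krt14 only in the Krt14 groups without LOF.

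Genes that keratinocytes at a wound edge express together with these keratins were followed as a list. Of 34 names 32 were in the table and 31 were tested. In LOF minus Krt14 at 6 weeks 26 of 31 fell and the other 5 did not pass, with a median log2 change of -4.00 beside 0.16 over all tested genes. Called higher were 19.5% of all tested genes in LOF minus Krt14 at 6 weeks, 6.87% in GOF minus Inv, 8.18% in Krt14 minus Inv, 4.02% in Krt14 at 8 minus 6 weeks and 15.2% in GOF minus Krt14. Called lower were 11.4%, 8.40%, 11.4%, 0.855% and 12.5% in the same order. With the genes at 0 in a whole group set at the bound of 3 reads per library, that median was -3.38. Gjb2, the connexin 26 gap junction gene, had 605 and 521 normalized counts in LOF, against 5826 and 5599 in Krt14 at 6 weeks (log2 change -3.34). The protease inhibitor gene Slpi had 3 and 7 in LOF, against 621 and 496, and the cornified envelope precursor Sprr1b had 8 and 7, against 662 and 1026. These LOF values were at or under 3 reads, so no fold is given. With Xist as a covariate 8 of 31 fell and 1 rose.

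In Krt14 minus Inv at 8 weeks 24 of 31 rose and the other 7 did not pass (median 3.49, or 3.36 with bounds, beside -0.10 over all tested genes). Gjb2 had 6052 and 5669 in Krt14 at 8 weeks, against 815 and 741 in Inv. Inhba, which encodes the activin A subunit induced in wounds, had 225 and 258 in Krt14 at 8 weeks, against 12 and 7 in Inv. Both genes thus followed the same split of libraries as the members. In GOF minus Inv 6 rose and 1 fell (median 0.82, or 0.38 with bounds, beside -0.01 over all tested genes), and 10 and 4 did so at an unadjusted p under 0.05 and 2 and 1 in limma-voom. Without GOF replicate 1 the counts were 8 and 4, without Inv replicate 1 they were 2 and 0, and with no filter they were 1 and 1. None was called without Inv replicate 2, with Xist as a covariate or in a fit to these groups alone. The integrin gene Itga5 had 383 and 310 in GOF, against 203 and 186 in Inv, and the EGF family ligand gene Hbegf had 101 and 250 in GOF, against 41 and 55, while Gjb2 fell, at 546 and 388 in GOF, against 815 and 741. In GOF minus Krt14 at 8 weeks 22 of 31 fell (median -3.08, or -3.02 with bounds, beside 0.09). The epidermal growth factor ligand gene Ereg had 8 and 8 in GOF there, which is 3 reads in each library, against 246 and 261 in Krt14 at 8 weeks. With Xist as a covariate 5 of 31 fell in that comparison. From 6 to 8 weeks 1 gene fell, the cytokine gene Il24, with 28 and 18 at 8 weeks, against 256 and 264 at 6 weeks. The call of Il24 ended with a pseudocount of 0.5, with no filter and without any 1 library. The median of the list was -0.71 there, beside 0.14 over all tested genes, 11 of 31 had lower values at an unadjusted p under 0.05, and limma-voom called 14 lower.

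Factors reported to act on these keratin genes did not move one way. Of all tested genes 19.5% were called higher and 11.4% lower in LOF minus Krt14 at 6 weeks. The shares were 8.18% and 11.4% in Krt14 minus Inv and 6.87% and 8.40% in GOF minus Inv. They were 4.02% and 0.855% from 6 to 8 weeks and 15.2% and 12.5% in GOF minus Krt14. The 5 of 29 factors higher in GOF minus Krt14 were near that share. In LOF minus Krt14 at 6 weeks 10 of 29 rose and 12 fell (median -0.15), and 6 rose without LOF replicate 2 or without Krt14 at 6 weeks replicate 2. Fosl1, an AP-1 subunit of wound keratinocytes, had 53 and 82 in LOF, against 848 and 1292 in Krt14 at 6 weeks, and Nr3c1, the glucocorticoid receptor, a repressor of these keratin genes, had 6294 and 7125 in LOF, against 2160 and 1860. Thra, a thyroid hormone receptor gene, had 2079 and 2230 in LOF, against 942 and 801. Stat3 and Nfe2l2 (Nrf2), both reported as activators of wound keratins, fell, at 3169 and 3371 and at 1376 and 1369 in LOF, against 7359 and 7381 and 2351 and 2870 in Krt14 at 6 weeks. Gli1, the Hedgehog effector, rose, at 4829 and 4735 in LOF, against 2921 and 2583. The 4 keratins and Gli1 thus moved in opposite directions in LOF.

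In Krt14 minus Inv at 8 weeks 12 of 29 factors rose and 5 fell (median 0.34). There 7 rose without Krt14 replicate 1, without Inv replicate 2 or with no filter, and 3 fell without Krt14 replicate 2 or either Inv replicate. The AP-1 genes Fos and Fosb had 14589 and 14061 and 6964 and 7112 in Krt14 at 8 weeks, against 3177 and 2651 and 1680 and 1394 in Inv. They had 3542 and 3515 and 1402 and 1467 in Krt14 at 6 weeks, where the members were highest, so that Fos and Fosb did not share the order of the wound keratins. Nr3c1 had 2238 and 2387 in Krt14 at 8 weeks, against 5206 and 5605 in Inv. In GOF minus Inv 12 of 29 rose and 2 fell (median 0.45), but 6 rose without Inv replicate 1, 2 rose without Inv replicate 2 or in a fit to these groups alone, and 7 rose with no filter. Klf4, a regulator of barrier differentiation, had 5516 and 6638 in GOF, against 2401 and 2247 in Inv, Stat3 had 5379 and 9744 in GOF, against 3334 and 3148, and Nfe2l2 had 1609 and 1828 in GOF, against 897 and 951. These rises stood beside wound keratins that did not pass the test. From 6 to 8 weeks 4 rose and 3 fell, and 2 rose without 6 weeks replicate 2 or either 8 weeks replicate, where the falls were no longer called. In a fit to these groups alone 8 fell, and in limma-voom 5. In GOF minus Krt14 at 8 weeks 5 rose and 6 fell, with 3 rising without Krt14 replicate 1, 2 without Krt14 replicate 2, in limma-voom, after median of ratios or in a fit to these groups alone, 9 rising without GOF replicate 1 and 12 falling without GOF replicate 2.

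Desmosome genes and other partners of keratin filaments were followed as a further list, beside the same shares of all tested genes. The 2 of 19 that rose in LOF minus Krt14 at 6 weeks were under the share of 19.5%. In GOF minus Krt14 at 8 weeks the 2 that rose were under the share of 15.2%. Of 19 tested partners 7 fell and 2 rose in LOF minus Krt14 at 6 weeks (median -0.21), with 4 falling without LOF replicate 2 and 3 without Krt14 at 6 weeks replicate 2. The desmosomal cadherin gene Dsg3 had 9735 and 8926 in LOF, against 19272 and 21176 in Krt14 at 6 weeks, and the plakin gene Ppl, which links filaments to the envelope, rose, at 10298 and 9797 in LOF, against 4338 and 4424. Sfn had 6816 and 5150 in LOF, against 17746 and 20595. In Krt14 minus Inv at 8 weeks 11 of 19 rose (median 0.53), and 6 rose without Krt14 replicate 2. Sfn had 13284 and 13748 in Krt14 at 8 weeks, against 4287 and 3670 in Inv. In GOF minus Inv 7 rose and 1 fell (median 0.32), Ppl among them, with 11001 and 14608 in GOF, against 4530 and 4250. The count that rose was 11 without GOF replicate 2, 3 without Inv replicate 1 or in a fit to these groups alone and 4 without Inv replicate 2, and 3 fell without GOF replicate 1. In GOF minus Krt14 at 8 weeks 2 rose and 4 fell. There 10 fell without GOF replicate 1 or in limma-voom and 9 after median of ratios, and 1 rose without GOF replicate 1 or either Krt14 replicate. From 6 to 8 weeks Dsg3 was called lower, though not without any 1 library or with no filter, and 4 partners were in limma-voom or in a fit to these groups alone. Eppk1 was not analysed here.

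Proliferation genes were another list, beside the same shares of all tested genes. In LOF minus Krt14 at 6 weeks 11 of 16 fell (median -0.68), Top2a among them, with 7515 and 7675 in LOF, against 13299 and 13773. In Krt14 minus Inv at 8 weeks 8 of 16 rose (median 0.43). In GOF minus Inv 12 of 16 fell (median -0.85), where no wound keratin passed. Rrm2, a ribonucleotide reductase subunit gene, had 486 and 614 in GOF, against 1422 and 1373 in Inv. In GOF minus Krt14 at 8 weeks all 16 fell. From 6 to 8 weeks the 16 log2 changes lay between -0.24 and 0.22. The counts of factors, partners and proliferation genes in the LOF comparison and both GOF comparisons did not hold with Xist as a covariate, where at most 2 genes of any of these lists rose and at most 7 fell in limma.

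**Figure D4:**
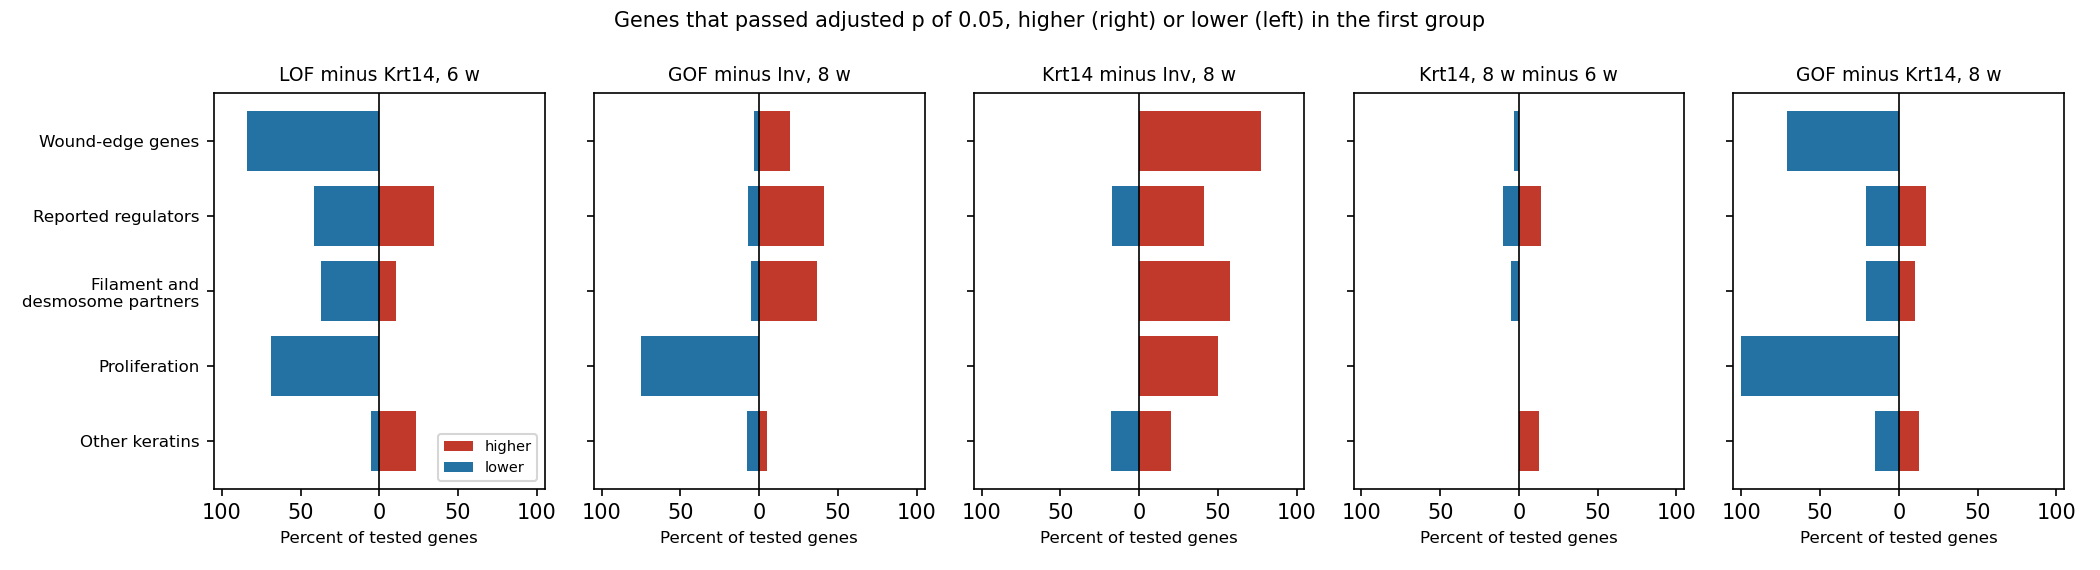
Percent of the tested genes of 5 lists that passed an adjusted p of 0.05 (limma), higher (right) or lower (left) in the first group of each of 5 comparisons. The wound-edge genes fall in LOF minus Krt14 at 6 weeks (26 of 31) and in GOF minus Krt14 at 8 weeks (22 of 31) and rise in Krt14 minus Inv (24 of 31), and the other keratins move in both directions in 4 of the 5 comparisons.

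Other keratins moved in both directions in most comparisons. The table held 50 other keratin genes, of which 39 were tested, and 9 rose and 2 fell in LOF minus Krt14 at 6 weeks, beside 19.5% of all tested genes called higher and 11.4% called lower. The 2 that fell were Krt79, a keratin of the upper follicle, with 7275 and 5049 in LOF, against 21728 and 18152 in Krt14 at 6 weeks, and Krt75, a keratin of the companion layer, with 174 and 104 in LOF, against 724 and 584. Krt2, a late suprabasal keratin, rose, at 2850 and 2598 in LOF, against 20 and 8. Krt75 was also higher in Krt14 at 8 weeks, at 1129 and 855, against 187 and 181 in Inv. Krt42, directly beyond Krt17 in the cluster, had 223 and 152 in LOF, against 359 and 323 in Krt14 at 6 weeks (limma adjusted p = 0.0878). In Krt14 minus Inv at 8 weeks 8 of 39 rose and 7 fell, and the hair keratins Krt84 and Krt36 were among those that fell, with 17 and 16 and 12 and 11 in Krt14 at 8 weeks, against 6803 and 6016 and 3700 and 3428 in Inv. Of all tested genes 8.18% and 11.4% were called higher and lower there. In GOF minus Inv 2 of 39 rose and 3 fell, beside 6.87% and 8.40% of all tested genes. In GOF minus Krt14 at 8 weeks 5 rose and 6 fell, beside 15.2% and 12.5%. From 6 to 8 weeks 5 rose, beside 4.02%.

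The 4 members were close to each other across the 10 libraries. Pearson's r of log2 values, over libraries that share groups and are given as a description, was 0.988 for Krt6a with Krt6b and for Krt6b with Krt16, 0.974 for Krt6a with Krt16, 0.936 for Krt6a with Krt17, 0.909 for Krt16 with Krt17 and 0.895 for Krt6b with Krt17. Of 12088 genes compared, those most like Krt6a included Cdc25b (r = 0.996), a phosphatase gene of mitotic entry, and Pcdh7 (0.992), a protocadherin gene. Most like Krt6b were Pcdh7 (0.991), Sprr1a (0.990) and Csnk2b (0.990), and most like Krt16 were Rab25 (0.988), Smox (0.987) and Csnk2b (0.986). Krt17 was most like Cltb (0.995), a clathrin light chain gene, Eno1 (0.993), a glycolytic enolase gene, and Galnt2 (0.986), none of which was among the nearest of the other 3 members. The mean profile of the 4 was nearest to Rab25 (0.993), a small GTPase gene of epithelial cells, which had 389 and 267 in LOF, 332 and 240 in GOF, 773 and 717 in Krt14 at 8 weeks, 710 and 935 in Krt14 at 6 weeks and 260 and 242 in Inv.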

How the data were processed

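Per the submitters' processing notes, reads were aligned with STAR to GRCm38 (mm10) and counted with HTSeq; versions are not given here. The annotation release, read length and strand setting are likewise not given in the sources used here. All measured values come from 1 table. The deposited table holds the authors' normalized counts, treated as a normalized score and not as raw counts: columns sum to between 20011195 and 20014054. Between 99.3% and 99.9% of values below 20000 were whole multiples of 1 step per library (2.25 to 2.60), rounded up, so whole reads could be recovered and a floor of 3 reads lies at 6.76 to 7.80. This floor covers counting error alone, since amplified reads lacking molecular identifiers can be copies of 1 molecule. Of the gene IDs, 49326 matched GENCODE M21, which gave coordinates and lengths.

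Genes with at least 10 in at least 2 libraries were tested. The log2 of the value plus 1 was fitted over the 5 groups with limma 3.58.1 (R 4.3.3, lmFit, eBayes with trend), two-sided, with Benjamini-Hochberg adjustment over all tested genes in each comparison and a threshold of 0.05. A fold change on this scale understates the change of low genes. The fit was run on simulated data in which each gene had the same spread in every group and changes were added in LOF only. That run does not cover the unequal replicate spread of the groups here or the differences in Xist. Alternatives were the pseudocount, the filter, rescaling, the groups in the fit, limma-voom on recovered reads, a replicate block, leaving out each library, values per Krt14, the sum of Krt6a and Krt6b and, added after seeing the data, Xist as a covariate. Named genes were the members, up to 3 called genes of smallest p per list and comparison, the 3 genes most like each member by Pearson's r (mean of at least 50) and other keratins with a mean of at least 100. Other list genes (Gli1, Stat3, Nfe2l2, Nr3c1 and Sfn in some comparisons) and Trp63, Cdh1, Epcam, Itga6, Cxcr2, Cd68, Csf1r, Dcn, Col1a1, Col1a2, Xist and Ddx3y were named after their values were seen. An item that the rule for named genes would give is not reported here. The members and the lists were chosen with earlier results of these data known.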

Additional observations from a re-analysis of the deposited data

How the results depend on the processing

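Every call of a member in the 3 comparisons that had calls held under the pseudocounts, filters, rescalings, limma-voom, fits to only the groups compared and left-out libraries. Rescaling by the median of ratios changed no member's call but gave 3347 higher and 3484 lower genes in LOF minus Krt14 at 6 weeks, against 4294 and 2511 as deposited, and 597 and 515 in Krt14 at 8 minus 6 weeks, against 885 and 188. In LOF minus Krt14 at 6 weeks the Xist covariate gave Krt6a -2.42, Krt6b -2.20, Krt16 1.29, Krt17 1.42 and the summed Krt6a and Krt6b -2.38. In GOF minus Krt14 at 8 weeks it gave -2.81, -2.28, 0.82, 0.21 and -2.74. The cause was not tested. Krt17 in GOF minus Inv ranged from -0.21 to 0.76 with single libraries left out, and Krt16 in Krt14 at 8 minus 6 weeks was -0.29 and called in a fit to those groups alone, where fewer samples set the spread. Per Krt14, Krt17 changed by 2.01 in Krt14 minus Inv and by -1.74 in GOF minus Krt14. Counts of changed genes, 6805 in LOF minus Krt14 at 6 weeks, 3359 in GOF minus Inv, 4309 in Krt14 minus Inv, 1073 in Krt14 at 8 minus 6 weeks and 6098 in GOF minus Krt14, moved more. The Xist covariate gave 941, 40, 1780 and 202 in LOF minus Krt14, GOF minus Inv, Krt14 at 8 minus 6 weeks and GOF minus Krt14. Only the groups compared gave 583 in GOF minus Inv, 6501 in Krt14 minus Inv, 2366 in Krt14 at 8 minus 6 weeks and 3301 in GOF minus Krt14. In Krt14 at 8 minus 6 weeks no filter gave 536 and quantile normalization 468. Leaving out single libraries gave 3772 to 5243, 943 to 6249, 1910 to 2256, 77 to 844 and 3302 to 7328 in the order of the 5 comparisons above. Replicate numbers did not pair the libraries (correlations of deviations -0.05 to -0.01), and with a replicate block Krt6a in LOF minus Krt14 at 6 weeks stayed at -4.12 and no call of a member changed.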

Other observations

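Annotated miRNA entries lie on the opposite strand inside exons of Krt6a and Krt6b, and their values are given with no test. Gm44342 had 627 and 305 normalized counts in LOF, 260 and 195 in GOF, 4676 and 5315 in Krt14 at 8 weeks, 5608 and 8300 in Krt14 at 6 weeks and 121 and 170 in Inv, between 12.1% and 16.9% of Krt6a in every library. Gm44383 had 18 and 10 in LOF, 39 and 29 in GOF, 1224 and 1082 in Krt14 at 8 weeks, 1443 and 1788 in Krt14 at 6 weeks and 19 and 10 in Inv. That was 5.45% and 5.32% of Krt6b in LOF, 12.5% and 16.9% in GOF, at least 17.2% in the 4 libraries of Krt14 at 8 and 6 weeks and 9.90% and 5.26% in Inv. Both entries cover 129 exonic bases of their host, and the source of their counts was not tested.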
